A study of Mus musculus with 3 samples.

Results

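The 6 genes described here are 3 pairs, each of a testis isoform and the general isoform of the same protein of the respiratory chain. They are Cyct with Cycs, Cox6b2 with Cox6b1, and Cox8c with Cox8a. They were chosen by symbol from the 32285 genes of the deposited tables, and all 6 were found, with 1 entry each. The study examined Tex10 in spermatogenesis by droplet sequencing of single cells from adult testis of C57BL/6N mice. It had 2 wildtype libraries of 1 mouse each and 1 library that pooled cells of 2 mice with a conditional Tex10 knockout. The Cre driver, the deleted exons and the exact ages are not given in the sources used here. The assay counts unique molecular identifiers (UMIs) at the 3′ end of each transcript. Levels are given as counts per 1000000 UMIs of a class of cells (CPM). Because 1 end is counted per molecule, they were not divided by gene length. Isoform shares assume that both genes of a pair are captured equally well, which was not tested.

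Cytochrome c is the small soluble heme protein that carries electrons from complex III to cytochrome c oxidase (complex IV) in the space between the mitochondrial membranes, and its release into the cytosol starts the apoptosome. The catalytic core of the oxidase is encoded by mitochondrial DNA, and nuclear subunits such as COX6B and COX8 surround it. COX6B faces the cytochrome c side of the enzyme. Germ cells are known for replacing several general proteins of energy metabolism by testis isoforms from separate genes, among them cytochrome c testis (Cyct) and the oxidase subunits Cox6b2 and Cox8c.

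The genes lie apart in the genome. In GRCm38, Cyct is on chromosome 2 from 76353942 to 76360450 and Cycs on chromosome 6 from 50562563 to 50566538, both on the minus strand. Cox6b2 (4751792 to 4753094) and Cox6b1 (30616861 to 30626151) are both on the minus strand of chromosome 7. Cox8c is on chromosome 12 from 102899316 to 102900526 on the plus strand, and Cox8a on chromosome 19 from 7215153 to 7217616 on the minus strand. All are annotated as protein coding, and none overlaps another annotated gene. Coding sequences of the pairs were identical at 77.4% of aligned bases for Cyct and Cycs, 65.9% for Cox6b2 and Cox6b1, and 65.2% for Cox8c and Cox8a. In the last 500 bases of the transcripts, where this assay reads, no 31-base word of 5 of the genes occurred in any other gene, and 3.40% of the words of Cox6b1 were shared with Gm38305. A read from this stretch could therefore be assigned to 1 isoform of a pair. The search used 1 transcript per gene, and reads from other stretches or earlier 3′ ends were not checked.

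The 250 bases before the RefSeq transcription start (GRCm38.p6, all on the minus strand) are shown for the cytochrome c pair, whose members were used in opposite stages, and for Cox6b2, the other testis isoform with an entry. The promoter table held 5 of the 6 genes. Sequences run 5′ to 3′ towards the start, and capitals mark matches to the motifs named after them.
Cyct, chr2:76360454-76360703: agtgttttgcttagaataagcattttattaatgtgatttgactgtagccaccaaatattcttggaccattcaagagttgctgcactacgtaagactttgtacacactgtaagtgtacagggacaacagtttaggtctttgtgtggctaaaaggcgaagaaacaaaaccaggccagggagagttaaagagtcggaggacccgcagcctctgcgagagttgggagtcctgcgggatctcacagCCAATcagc
Cycs, chr6:50566570-50566819: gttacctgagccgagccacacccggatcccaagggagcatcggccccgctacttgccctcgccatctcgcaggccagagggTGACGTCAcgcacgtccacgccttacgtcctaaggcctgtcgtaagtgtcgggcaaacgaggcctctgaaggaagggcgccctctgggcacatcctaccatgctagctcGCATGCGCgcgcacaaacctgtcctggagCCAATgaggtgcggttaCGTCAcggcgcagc
Cox6b2, chr7:4753095-4753344: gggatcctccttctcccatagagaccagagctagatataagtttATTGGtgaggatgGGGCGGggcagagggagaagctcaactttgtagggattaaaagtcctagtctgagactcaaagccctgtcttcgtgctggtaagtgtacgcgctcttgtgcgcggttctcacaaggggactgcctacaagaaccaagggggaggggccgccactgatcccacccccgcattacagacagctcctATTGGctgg
The motifs were searched on both strands. The cyclic AMP response element (CRE) core TGACG was found at 3 places before Cycs, at 1 before Cox6b1 and at 1 before Cox8a. It was not found before Cyct or Cox6b2, and 17.9% of all 32536 promoter windows hold it. The full CRE TGACGTCA, which contains the core on both strands, was found before Cycs only among the 5 and is in 1.56% of all windows. The shorter motif of nuclear respiratory factor 1 (NRF1), GCATGCGC, was found before Cycs only among the 5 (2.27% of all windows), and the full NRF1 motif before none of them (0.784%). The CCAAT box was found before all 5 (33.8%), with its first base 9 bases before the start in Cyct and, on the other strand, in Cox6b2. The Sp1 motif GGGCGG was found before Cox6b2 (33.0%) and the ETS motif CCGGAAG before Cox6b1 (6.95%). The TATA box TATAAA (12.3%) and the RFX motif GTTGCC (10.3%) were found before none of the 5. CpG dinucleotides numbered 23 before Cycs, 14 before Cox6b1 and 11 before Cox8a, against 6 before Cyct, 8 before Cox6b2 and a median of 6 over all windows. The general isoforms thus had the higher CpG counts in both pairs that could be compared. These matches describe letters in a window and no binding was measured.

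The libraries held 9967, 10153 and 12918 deposited barcodes (wildtype replicate 1, wildtype replicate 2, knockout) with 93418341, 96001773 and 147783171 UMIs. Library pairs shared 27 to 30 barcodes. Cells were clustered without the 6 genes and named from marker genes, so that class names stand for marker-defined, spermatogonia-like to spermatid-like groups. The germ classes held, in the same order, 221, 306 and 238 spermatogonia; 449, 532 and 541 early spermatocytes; 540, 603 and 431 late spermatocytes; 460, 806 and 665 round spermatids; and 1608, 2157 and 2030 elongating spermatids. A further germ cluster, number 16, scored highest for early spermatocytes but had Piwil1, a marker of late spermatocytes, among its leading genes and was left unnamed (189, 280 and 223 cells). Barcodes of low-UMI clusters, 51.5%, 36.6% and 59.9% of those kept, were left out of the classes. Tex10 stood at 45.1 and 41.0 CPM in the wildtype libraries and 35.2 CPM in the knockout library over all kept cells, which checks no label because the deleted exons are unknown and the tag lies at the 3′ end.

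In all 3 pairs the general isoform held most of the UMIs in spermatogonia and the testis isoform held most of them from early spermatocytes on. Cyct made up 23.8%, 24.6% and 21.6% of the UMIs of Cyct plus Cycs in spermatogonia (wildtype replicate 1, wildtype replicate 2, knockout). In early spermatocytes the share was 73.8%, 72.2% and 66.2%, and in late spermatocytes 98.5%, 98.2% and 98.5%. The 3 libraries moved alike, with no overlap between these classes.

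Cox6b2 made up 14.5%, 18.9% and 14.0% of its pair in spermatogonia, 84.1%, 83.0% and 80.6% in early spermatocytes, and 96.6%, 96.9% and 96.8% in late spermatocytes. Cox8c made up 18.4%, 24.8% and 19.4% in spermatogonia, 94.5%, 94.5% and 92.4% in early spermatocytes, and 99.4%, 99.5% and 99.5% in late spermatocytes. Early spermatocytes were thus the first class over 50% for each pair. The exact 95% binomial interval of a share reached at most ±2.94 percentage points in the germ classes before elongation. Such intervals cover counting error only.

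After meiosis the pairs parted. The Cox6b2 share stayed at 95.8%, 95.9% and 95.7% in round and 91.1%, 92.5% and 91.3% in elongating spermatids. The Cox8c share was 98.4%, 98.4% and 98.3% in round and 97.3%, 97.4% and 96.0% in elongating spermatids. The Cyct share was lower, at 91.5%, 90.3% and 89.3% in round spermatids and 66.8%, 71.4% and 57.6% in elongating spermatids. Elongating spermatids held few UMIs of the cytochrome c pair, with 440, 574 and 918 UMIs and intervals up to ±4.501 percentage points. Within the clustering that defines the classes, the clusters of this class differed. The wildtype Cyct share was 91.2% ± 2.97 in cluster 8, 79.2% ± 6.80 in cluster 5 and 69.7% ± 4.79 in cluster 6. It was 61.9% ± 0.483 in cluster 10 and 59.3% ± 5.93 in cluster 1 (SD, n = 2). In the same order the knockout shares were 81.7%, 73.4%, 65.0%, 49.1% and 46.6%. The part of cell makeup in the class shares was not tested.

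**Figure D1:**
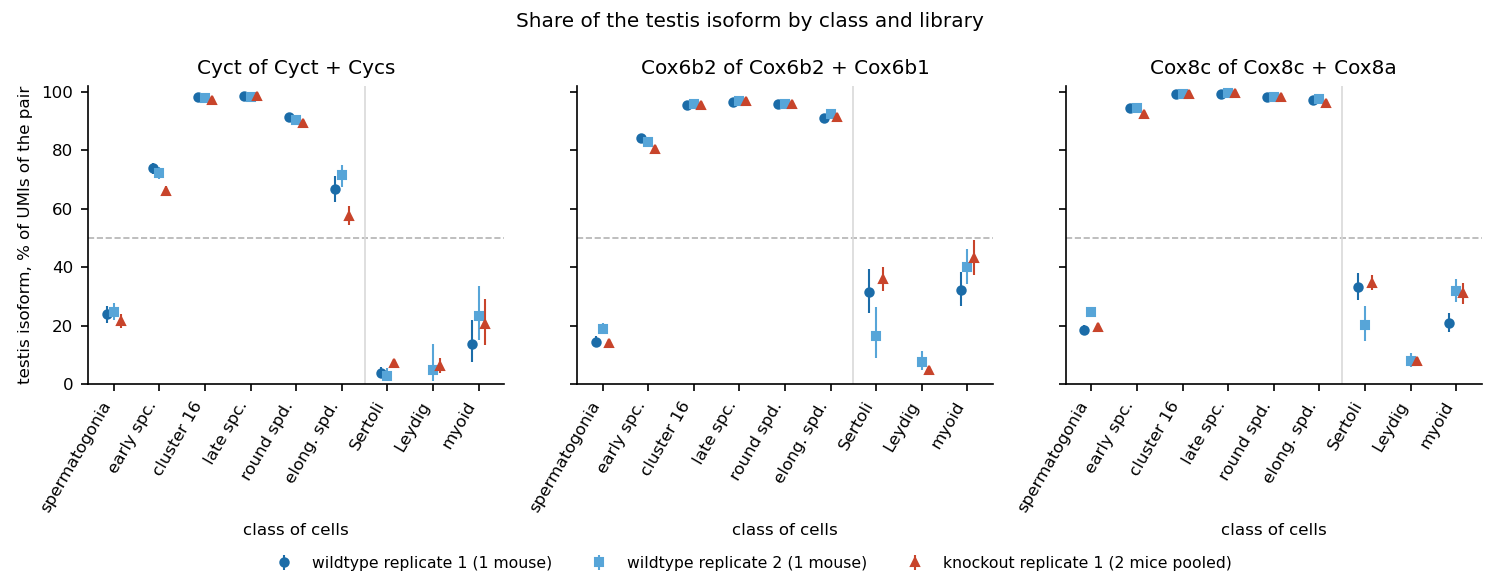
Percent of the UMIs of each pair that belong to the testis isoform (y axis) in germ classes left of the grey line and somatic classes right of it (x axis), with 1 point per library and exact 95% binomial intervals as bars; spc. is spermatocytes and spd. spermatids, and no Leydig cells were called in wildtype replicate 1. All 3 pairs cross the dashed line at 50% between spermatogonia and early spermatocytes. In elongating spermatids taken as 1 class, the cytochrome c pair lies closest to that line (66.8%, 71.4% and 57.6%), and the clusters of the class differ.

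At a finer clustering, the early and late spermatocytes formed 7 clusters, which were arranged by meiotic marker genes and not by the 6 genes. Cluster 17 was high in Stra8 (1027 ± 160.6 CPM, SD, n = 2), the gatekeeper of meiotic entry, and in Prdm9, which marks recombination hotspots. There the wildtype share was 76.0% ± 1.84 for Cox8c, 40.3% ± 4.75 for Cox6b2 and 15.03% ± 0.654 for Cyct (SD, n = 2). The 3 testis isoforms themselves stood at like fractions of their level over all kept cells of the same library, 10.8% to 16.3% for Cox8c, 11.02% to 17.1% for Cox6b2 and 12.3% to 13.9% for Cyct, beside 11.6% to 13.6% for the sum of 8 haploid transcripts such as Prm1 and Tnp1, which these cells should lack. The sum is mostly Prm1, Prm2, Tnp1 and Tnp2, and single haploid transcripts gave other ratios in spermatogonia and myoid cells (below). UMIs of free RNA carried into every droplet count in these shares, and their part in the shares of cluster 17 and in the order of the pairs there was not tested.

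In cluster 26, where Stra8 was down to 17.3 CPM and Dmc1, the meiotic recombinase, stood at 216 CPM, the shares were 86.0% ± 1.31 for Cox8c, 62.0% ± 4.15 for Cox6b2 and 31.9% ± 7.05 for Cyct. The testis isoforms stood there at 15.1% to 33.5% of their level over all kept cells, beside 10.8% to 13.2% for the haploid transcripts. In cluster 21, where Piwil1, a piRNA-binding protein of pachytene cells, stood at 491 CPM, the shares were 97.2% ± 0.519, 90.3% ± 0.444 and 88.1% ± 0.787, with the testis isoforms at 71.2% to 222% of their level over all kept cells and the haploid transcripts at 5.59% to 6.09%. In cluster 24, with Piwil1 at 1254 CPM, the wildtype shares were 99.3%, 95.2% and 97.7%. The order Cox8c, Cox6b2, Cyct held in both wildtype libraries and in the knockout library in clusters 17, 26 and 21. The knockout shares in cluster 17 were 76.5%, 43.7% and 14.0%, in cluster 26 82.0%, 57.8% and 28.5%, and in cluster 21 95.7%, 87.8% and 81.5%.

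**Figure D2:**
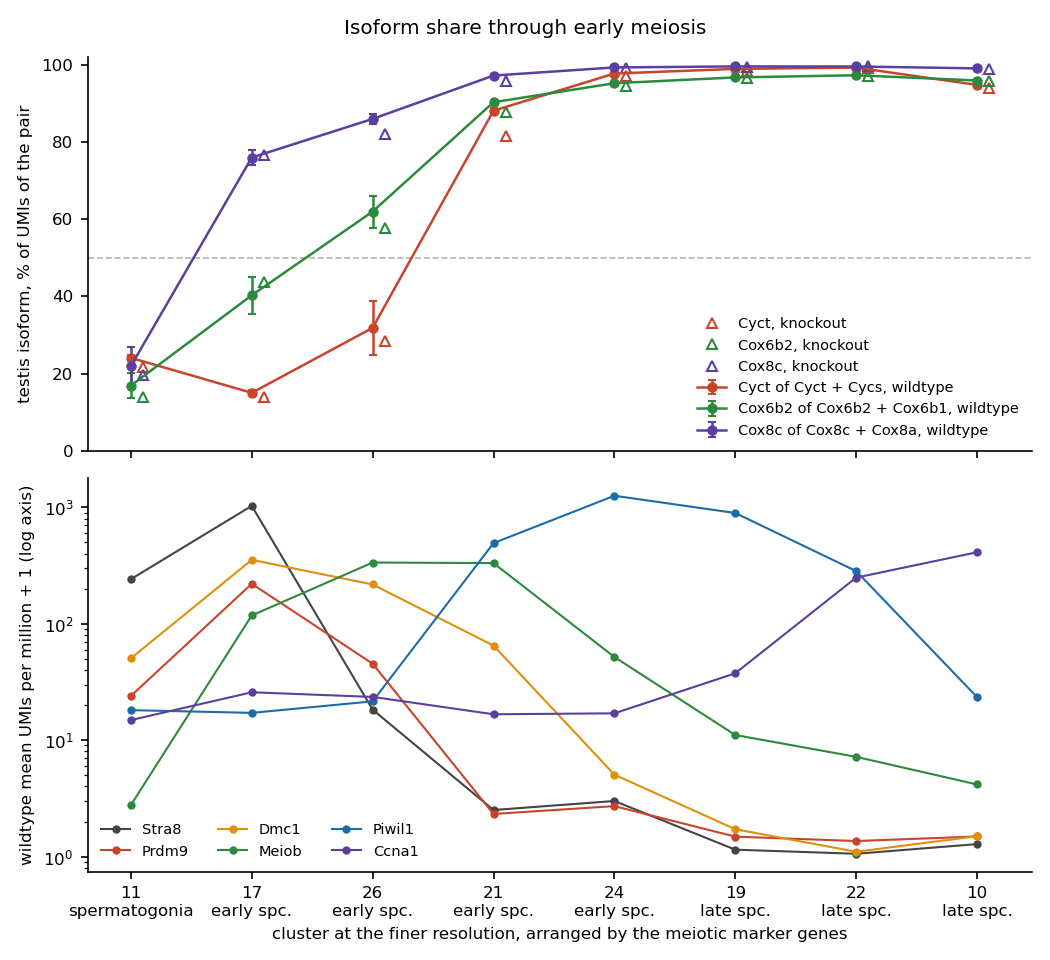
Top, percent testis isoform of each pair (y axis) in 8 clusters of the finer clustering arranged by marker genes (x axis), as wildtype mean with SD over 2 libraries and knockout as open triangles; bottom, wildtype mean level of 6 meiotic marker genes on a log axis. Cox8c is above 50% in cluster 17, Cox6b2 from cluster 26 and Cyct from cluster 21.

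Cox8a, the general subunit 8, stood at 710, 684 and 724 CPM in spermatogonia and at 62.0, 65.3 and 71.7 CPM in early spermatocytes. Cox8c stood at 160, 225 and 175 CPM in spermatogonia and 1068, 1120 and 873 CPM in early spermatocytes. From spermatogonia to cluster 17 the wildtype mean of Cox8a went from 689 ± 24.9 to 89.6 ± 9.40 CPM, while Cox8c went from 195 ± 47.5 to 286 ± 58.4 CPM. In that step Cox8a differed more than Cox8c.

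Cox6b1 followed a like course at a slower pace, with 510, 499 and 464 CPM in spermatogonia, 114, 134 and 114 CPM in early spermatocytes and 37.5, 40.5 and 34.3 CPM in late spermatocytes. Cox6b2 stood at 86.3, 116 and 75.5 CPM in spermatogonia, 603, 655 and 471 CPM in early and 1072, 1252 and 1047 CPM in late spermatocytes. In each library its level was higher in late than in early spermatocytes.

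Cycs, the general cytochrome c, stood at 243, 219 and 249 CPM in spermatogonia, 140, 135 and 153 CPM in early spermatocytes, and 7.40, 8.23 and 6.23 CPM in late spermatocytes. In cluster 17 it was still at 225 ± 15.3 CPM in wildtype, near its level in spermatogonia of the same clustering (231 ± 19.7 CPM), and it was at 85.4 ± 6.45 CPM in cluster 21. Cyct went the other way, with 39.7 ± 0.679 CPM in cluster 17, 79.1 ± 23.0 CPM in cluster 26 and 631 ± 0.355 CPM in cluster 21. The step to cluster 21 was the largest of these, and the share of Cyct passed 50% there.

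Using the rule of at least 2-fold in the same direction in both wildtype libraries, all 3 testis isoforms rose from spermatogonia to early spermatocytes, and Cox6b1 and Cox8a fell. The background was 14% of 8108 tested genes higher and 16.8% lower in that step. The log2 ratios (with 1 CPM added, mean of 2 wildtype libraries) were 2.32 ± 0.06 for Cyct, 2.64 ± 0.22 for Cox6b2, 2.52 ± 0.30 for Cox8c, -2.02 ± 0.19 for Cox6b1 and -3.43 ± 0.09 for Cox8a. Cycs, at -0.75 ± 0.07, did not pass. From early to late spermatocytes Cox8c rose (1.88 ± 0.04; 22.6% of genes higher) and all 3 general isoforms fell, by 3.98 for Cycs, 1.64 for Cox6b1 and 1.46 for Cox8a on the log2 scale (39% of genes lower).

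All 3 testis isoforms had their highest class level in germ cluster 16 in each library. Cyct stood there at 1010, 923 and 837 CPM, and stood at 484, 447 and 418 CPM in late spermatocytes. Cox6b2 stood there at 1387, 1563 and 1319 CPM. Cox8c was the most abundant of the 6 genes in every germ class after spermatogonia, at 4235, 4364 and 3859 CPM in cluster 16 and 4015, 4065 and 3691 CPM in late spermatocytes. For Cox8c the ranges of these 2 classes overlapped across libraries, and in each library cluster 16 was the higher. Late spermatocytes join clusters 12 and 13 of the coarser clustering. In cluster 13 alone Cox8c stood at 4333, 4479 and 3927 CPM, above cluster 16 in each library.

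From late spermatocytes to round spermatids Cyct and Cox8c fell, by 1.67 and 1.55 on the log2 scale (29.2% of genes higher and 32.7% lower), to 142, 150 and 120 CPM and 1306, 1457 and 1114 CPM. Cox6b2, at 755, 905 and 688 CPM in round spermatids, was less than 2-fold lower (-0.49 ± 0.03). Cycs was low but not at its lowest, with 13.1, 15.99 and 14.3 CPM against 7.40, 8.23 and 6.23 CPM before. In elongating spermatids, where protamine transcripts take up much of the UMI total, the levels were 15.2, 18.8 and 14.97 CPM for Cyct, 83.9, 103 and 87.7 CPM for Cox6b2, and 231, 264 and 218 CPM for Cox8c. A fall in CPM there cannot be told apart from a larger share of other transcripts, and by the same rule 9.11% of tested genes were higher and 62% lower in this step.

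The pair totals differed as well. Cyct plus Cycs summed to a wildtype mean of 305 ± 20.2 CPM in spermatogonia, 510 ± 34.6 in early spermatocytes, 986 ± 62.5 in cluster 16, 473 ± 26.002 in late spermatocytes and 160 ± 7.61 in round spermatids. Cox8c plus Cox8a summed to 890 ± 27.7, 1158 ± 39.4, 4327 ± 93.1, 4062 ± 34.3 and 1404 ± 108 CPM in the same classes. The totals of late spermatocytes, nearly all testis isoform, were above those of spermatogonia, mostly general isoform, for both pairs.

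**Figure D3:**
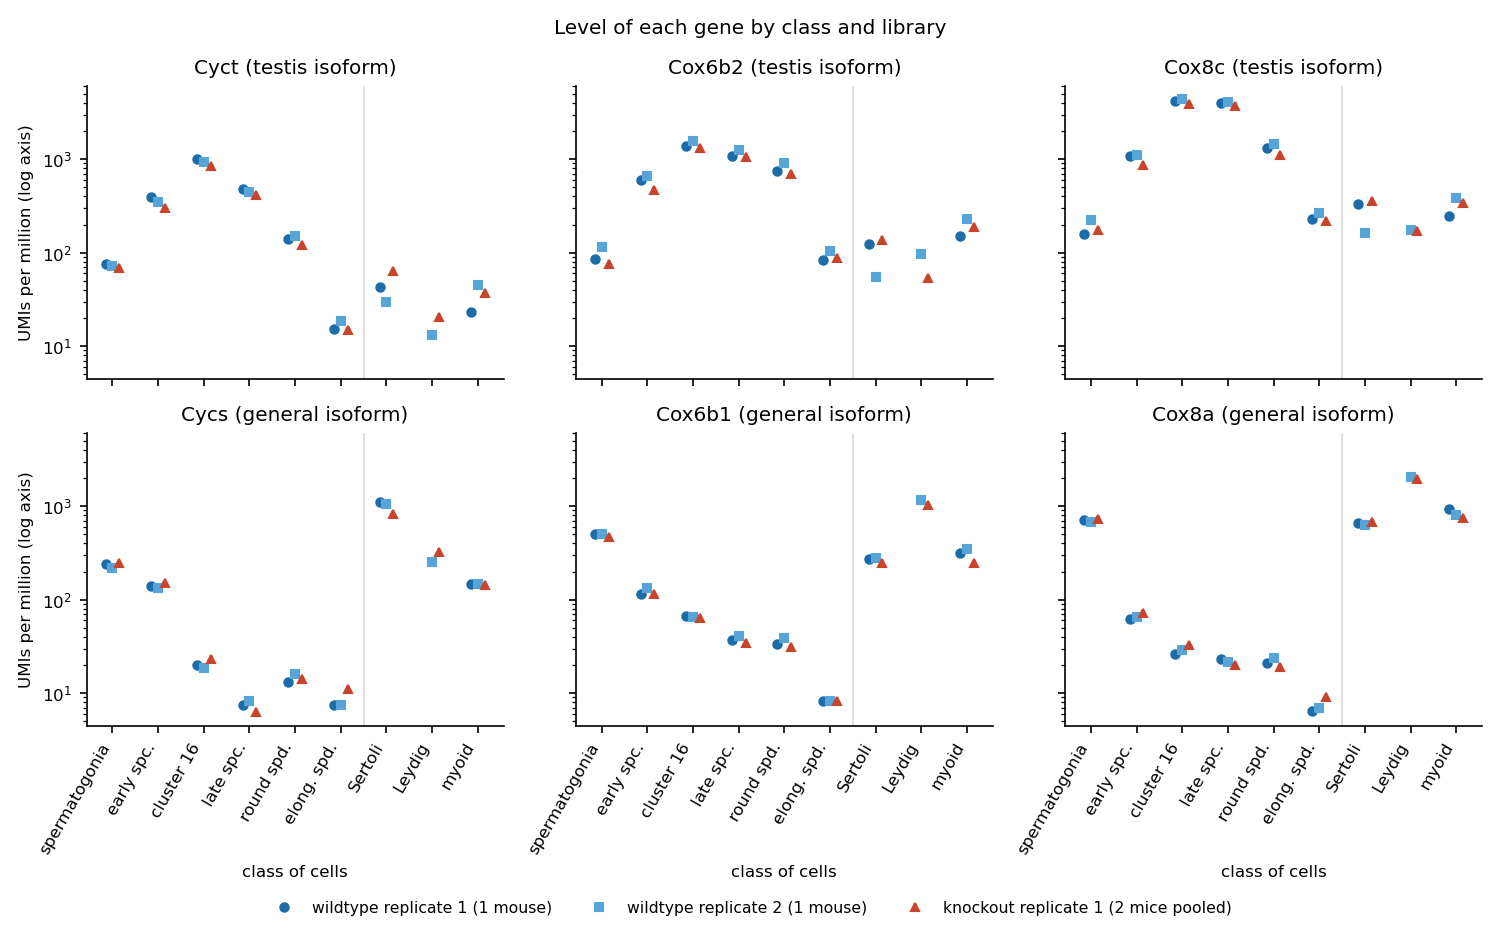
Level of each gene in CPM on a log axis (y axis) by class (x axis), with 1 point per library; the upper panels show the testis isoforms and the lower panels the general isoforms. The testis isoforms are highest in cluster 16 and late spermatocytes (Cox8c between 3691 and 4364 CPM), Cycs is highest in Sertoli cells, and Cox8a and Cox6b1 in Leydig cells.

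In Sertoli, Leydig and peritubular myoid cells the general isoforms held most of the UMIs of each pair. Sertoli cells (22, 14 and 51 cells) had the highest Cycs level of any class, at 1106, 1065 and 831 CPM, against 42.9, 29.8 and 63.3 CPM of Cyct. Leydig cells, the steroid-making cells of the interstitium, were called in wildtype replicate 2 (13 cells) and the knockout library (49 cells). They had the highest Cox8a level, at 2048 and 1970 CPM, and the highest Cox6b1 level, at 1153 and 1030 CPM. Peritubular myoid cells had Cox8a at 928, 813 and 748 CPM and Cox6b1 at 319, 345 and 248 CPM.

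Taking the 9 named classes with cells in both wildtype libraries by their wildtype means, Cyct ran from late spermatocytes (465 CPM) through early spermatocytes (372), round spermatids (146) and spermatogonia (73.9) down to elongating spermatids (17.02). Macrophages, at 361 CPM with 654 and 68.5 CPM in the 2 libraries, could not be placed. The ranges of interstitial mesenchymal, Sertoli and myoid cells (54.9, 36.4 and 34.0 CPM) overlapped between neighbours. For Cycs the order was Sertoli cells (1085 CPM), spermatogonia (231), myoid cells (147), early spermatocytes (137), interstitial mesenchymal cells (98.9), macrophages (56.9), round spermatids (14.5), late spermatocytes (7.81) and elongating spermatids (7.55), and only the last 2 overlapped. For Cox6b2, neighbours below round spermatids mostly overlapped, from interstitial mesenchymal cells (124 CPM) to Sertoli cells (89.5).

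Testis-isoform UMIs were also found in somatic classes. Myoid cells held 22.9, 45.03 and 36.8 CPM of Cyct, 152, 232 and 189 CPM of Cox6b2 and 245, 382 and 336 CPM of Cox8c. Relative to the level over all kept cells of the same library this was 7.02% to 15.8% for Cyct, 21.1% to 30.4% for Cox6b2 and 10.9% to 18.3% for Cox8c, beside 11.4% to 13.3% for 8 haploid transcripts such as Prm1 and Tnp1 summed. In spermatogonia the same ratios were 23.3% to 27.7% for Cyct, 12.0% to 14.5% for Cox6b2 and 7.09% to 10.6% for Cox8c, beside 7.35% to 7.88% for the haploid transcripts. The part of free RNA in the spermatogonial and somatic shares was not tested either. Cyct in spermatogonia (76.1, 71.6 and 68.3 CPM) was above Cyct in the Stra8-high cells of cluster 17 (wildtype mean 39.7 CPM). The 17 macrophages of wildtype replicate 1 had 654 CPM of Cyct and 2220 CPM of Cox8c, against 68.5 and 69.3 CPM, and 982 and 644 CPM, in the other libraries, and the testis isoforms held 80.0% to 92.1% of their pairs' UMIs there, so nothing is read from that class.

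With every cell thinned to 2000 UMIs, Cyct was seen in 55.5%, 50.3% and 50.9% of late spermatocytes and Cycs in 2.60%, 1.85% and 1.63%. Unthinned, at median depths of 36920, 25242 and 67964 UMIs, the shares of late spermatocytes with a UMI were 98.9%, 96.2% and 98.8% for Cyct and 28.9%, 24.2% and 33.2% for Cycs. In myoid cells, which should lack it, Cyct was seen in 4.26%, 6.82% and 4.598% of thinned cells. Among thinned early spermatocytes Cyct was seen in 24.6%, 24.5% and 23.3% and Cycs in 26.8%, 29.3% and 32.0%. Cycs was thus seen in more of these cells in each library, although Cyct held more of the summed UMIs. Cox6b2 and Cox8c were each seen in more of them than their general isoforms. Thinned early spermatocytes with a UMI of both Cyct and Cycs made up 4.03%, 5.54% and 5.59%, against 6.61%, 7.16% and 7.46% if the 2 genes were found independently of each other. For Cox8c and Cox8a the shares were 6.26%, 9.18% and 8.57% against 6.07%, 8.70% and 8.38%. For Cox6b2 and Cox6b1 they were 8.05%, 9.37% and 6.70% against 7.87%, 10.5% and 7.03%. The value was below the product of the shares in each library for the cytochrome c isoforms, above it in each for the subunit 8 isoforms, and above it in 1 library and below it in 2 for the subunit 6b isoforms, and none of these differences was tested. With thinned cells, in which each cell has the same weight, the Cyct share in early spermatocytes was 56.5% in wildtype and 48.4% in knockout.

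Over 17 named clusters and 13287 genes, the genes whose levels were most like those of each member were listed by Pearson's r. The unnamed germ cluster, where the testis isoforms had their highest class level, and the Leydig cluster were not among the 17. The macrophage cluster was among them. The points share libraries and differ in depth, so r is a description. Cyct was most like Cox7b2 (0.95), Kctd19 (0.95) and Rpl10l (0.95). Cox6b2 was most like Gm11837 (0.96), Sephs2 (0.96) and Rnf32 (0.95), and Cox8c most like Wdr93 (0.98), 6430531B16Rik (0.97) and 1810049I09Rik (0.97). Cycs was most like Tmem135 (0.97), Syap1 (0.97) and Cd2ap (0.96), Cox6b1 most like Mdh2 (0.98), Smim4 (0.98) and Eif4a1 (0.97), and Cox8a most like Sash1 (0.98), Stxbp3 (0.98) and Anp32a (0.98). Between members, r was 0.95 for Cox8c with Cox6b2, 0.90 for Cox8c with Cyct, and 0.96 for Cox8a with Cox6b1. Within pairs it was 0.06 for Cyct with Cycs, 0.09 for Cox6b2 with Cox6b1 and -0.07 for Cox8c with Cox8a.

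The closest partner of Cyct, Cox7b2, is itself a second isoform of an oxidase subunit. Cox7b2 stood at 147, 166 and 138 CPM in spermatogonia, 711, 681 and 543 CPM in early spermatocytes, 1140, 1174 and 920 CPM in late spermatocytes and 557, 649 and 436 CPM in round spermatids. Cox7b2 took 70.4% ± 3.31 of its pair with Cox7b in wildtype spermatogonia and 99.0% ± 0.287 in early spermatocytes, so it held most of its pair's UMIs already in spermatogonia. The part of free RNA in the spermatogonial share was not tested for this pair either. The isoforms known from muscle and lung showed no such exchange. Cox4i2 and Cox6a2 made up at most 4.65% of their pairs in any germ class (wildtype mean, Cox6a2 in elongating spermatids at 0.899 CPM), and Cox7a1 at most 0.874%. Cox8b had 0 UMIs in spermatogonia of all 3 libraries, which allows up to 1.14, 1.02 and 0.798 CPM.

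Of the 14 other nuclear subunits of the oxidase, 10 reached 20 CPM in spermatogonia or round spermatids. From spermatogonia to round spermatids 1 of the 10 was at least 2-fold higher in both wildtype libraries and 4 were lower, with a median log2 ratio of -0.96, the same as that of all genes tested (-0.96). The one that rose was Cox7b2 (1.94 ± 0.03). Those that fell were Ndufa4 (-6.64 ± 0.00), Cox7b (-4.48 ± 0.05), Cox4i1 (-1.86 ± 0.05) and Cox6a1 (-1.65 ± 0.16). Cox5a, which stood at 940, 894 and 893 CPM in spermatogonia and 1008, 1020 and 945 CPM in round spermatids, was among the 5 that did not pass. In the same step 2 of the 6 members rose (Cox6b2 3.03 ± 0.11 and Cox8c 2.85 ± 0.24) and all 3 general isoforms fell (Cycs -3.91 ± 0.30, Cox6b1 -3.77 ± 0.17 and Cox8a -4.90 ± 0.14). The background was 32.4% of 9287 genes higher and 48.6% lower. Cyct, at 0.89 and 1.05 in the 2 wildtype libraries, missed the limit in 1 of them.

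**Figure D4:**
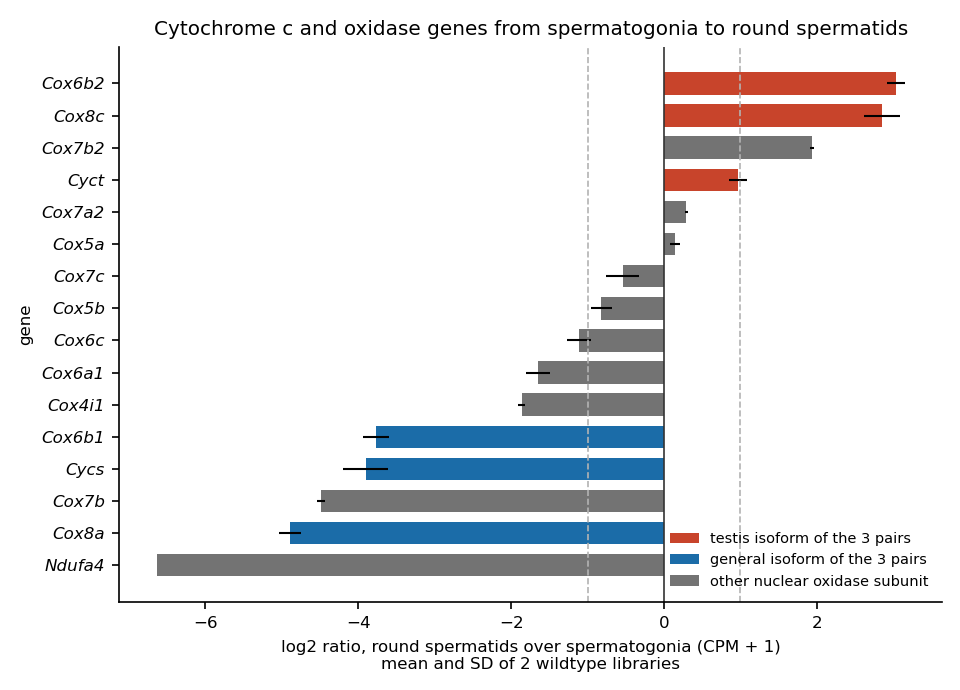
Log2 ratio of round spermatids over spermatogonia (x axis; bars, mean of 2 wildtype libraries; error bars, SD) for the 6 genes and the 10 other nuclear oxidase subunits that reached 20 CPM (y axis), with dashed lines at 2-fold. Cox6b2, Cox8c and Cox7b2 lie above 2-fold, and Ndufa4 lies lowest at -6.64.

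Partners of these proteins were compared over the same step from spermatogonia to round spermatids, in which 48.6% of all tested genes were lower and 32.4% higher. All 4 mitochondrially encoded partners fell, with mt-Co1 at -4.74 ± 0.06, mt-Co2 at -4.65 ± 0.07, mt-Co3 at -4.85 ± 0.03 and mt-Cytb at -5.31 ± 0.11. Cells over 10% mitochondrial UMIs were left out, which bears on these levels. Of 22 tested assembly factors of the oxidase, 13 fell, led by Cox14 (-4.597 ± 0.14) and Coa7 (-4.56 ± 0.32), and Pet100 rose (1.34 ± 0.13). Of 9 nuclear subunits of complex III, 4 fell, led by Cyc1 (-4.75 ± 0.14), the cytochrome c1 that hands electrons to cytochrome c, and by Uqcr11 (-3.36 ± 0.12), and the Rieske protein gene Uqcrfs1 rose (1.06 ± 0.01).

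Of 5 tested genes of cytochrome c maturation and of the apoptosome, 4 fell, among them Bax (-7.67 ± 0.15), whose protein opens the outer membrane, and Hccs (-5.88 ± 0.25), which attaches heme to cytochrome c. Of 10 genes listed under other testis isoforms of energy metabolism, 9 rose, led by Spata19 (4.08 ± 0.18) and Gykl1 (4.03 ± 0.21), and Slc25a31, the testis ADP/ATP carrier, fell (-4.06 ± 0.12). The list was read as a whole, and a general isoform was not shown for each gene on it. Of the 10 genes listed as general isoforms, 7 were tested and 5 fell, led by Gapdh (-5.36 ± 0.01) and Slc25a4 (-3.50 ± 0.29), and Ldha rose (3.23 ± 0.15). The 8 haploid transcripts all rose, led by Tnp2 (2.89 ± 0.65) and Akap4 (2.69 ± 0.05). Median log2 ratios were -4.79 for the mitochondrial genes, -1.25 for the assembly factors, -0.96 for complex III, -4.44 for the maturation and apoptosome genes and 3.48 for the genes listed under other testis isoforms.

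In the germ classes no member differed 2-fold between the knockout library and the wildtype mean. With 1 knockout library there is no test, and the comparison is of the libraries. A call required a 2-fold difference (log2 of 1) from both wildtype libraries in 1 direction, exceeding 2 times the log2 ratio between them, and 20 CPM in 1 library. None of the 6 members and none of the other listed genes were called in any germ class or in myoid cells, against a background of 0.338% of tested genes for spermatogonia, 0.243% for early and 0.919% for late spermatocytes, 1.17% for round and 1.34% for elongating spermatids, 0.393% for cluster 16 and 2.38% for myoid cells. Of the 6 members, 5 reached 20 CPM among late spermatocytes, 5 among round spermatids and 2 among elongating spermatids.

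By place alone, Cyct was lower in the knockout library than in both wildtype libraries in 5 of 5 germ classes, and Cox6b2, Cox8c and Cox6b1 in 4 of 5. Of the 14 germ clusters of the coarser clustering, Cyct was lower in 11 and between the wildtype libraries in 3. Cox6b1 was lower in 10 and higher in 2, Cox8c lower in 9 and Cox6b2 lower in 8. The shares over all genes that follow are by class and not by cluster. Over all genes tested, the share with the knockout below both was 36.3%, 30.4%, 38.6%, 39.8% and 26.4% from spermatogonia to elongating spermatids, and the share above both was 33%, 41.9%, 45.7%, 33.8% and 52.3%. In early spermatocytes the log2 ratio of knockout over the wildtype mean was -0.32 for Cyct, -0.42 for Cox6b2 and -0.33 for Cox8c, with 0.17, 0.12 and 0.07 between the wildtype libraries. In round spermatids the ratios were -0.27, -0.27 and -0.31, with 0.08, 0.26 and 0.16 between the wildtype libraries. Cox7b2 was below both wildtype libraries in every germ class as well, for example at 543 against 711 and 681 CPM in early spermatocytes.

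Cycs and Cox8a did not follow that pattern. Cycs was above both wildtype libraries in 3 of 5 germ classes and Cox8a in 3 of 5. In elongating spermatids Cycs stood at 7.56, 7.53 and 11.01 CPM (146, 164 and 389 UMIs), and Cox8a at 6.48, 6.98 and 9.001 CPM. The exact 95% Poisson intervals of Cycs, 6.39 to 8.89, 6.42 to 8.77 and 9.94 to 12.2 CPM, did not overlap between wildtype and knockout, and they cover counting error only. The class was made up differently in the libraries. In the finer clustering, cluster 7, with Cycs at 12.3 ± 0.474 CPM in wildtype and 12.2 CPM in knockout, held 139, 158 and 558 cells, and cluster 6, with 7.28 ± 0.929 CPM in wildtype, held 327, 514 and 16 cells. Within finer clusters of this class, Cycs stood at 2.41 ± 0.589 CPM in wildtype and 4.63 CPM in knockout in cluster 8, at 6.04 ± 0.526 and 8.81 CPM in cluster 25, and at 8.72 ± 2.74 and 15.2 CPM in cluster 29. It was at 11.1 CPM in the 16 knockout cells of cluster 6, at 6.75 ± 0.205 and 6.97 CPM in cluster 4, and at 15.6 ± 11.2 and 14.1 CPM in cluster 15. In the coarser clustering Cycs was above both wildtype libraries in 4 of the 5 clusters of elongating spermatids and between them in 1. With each cluster of the coarser clustering given the same weight, the log2 ratio was 0.44 in place of 0.49.

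**Figure D5:**
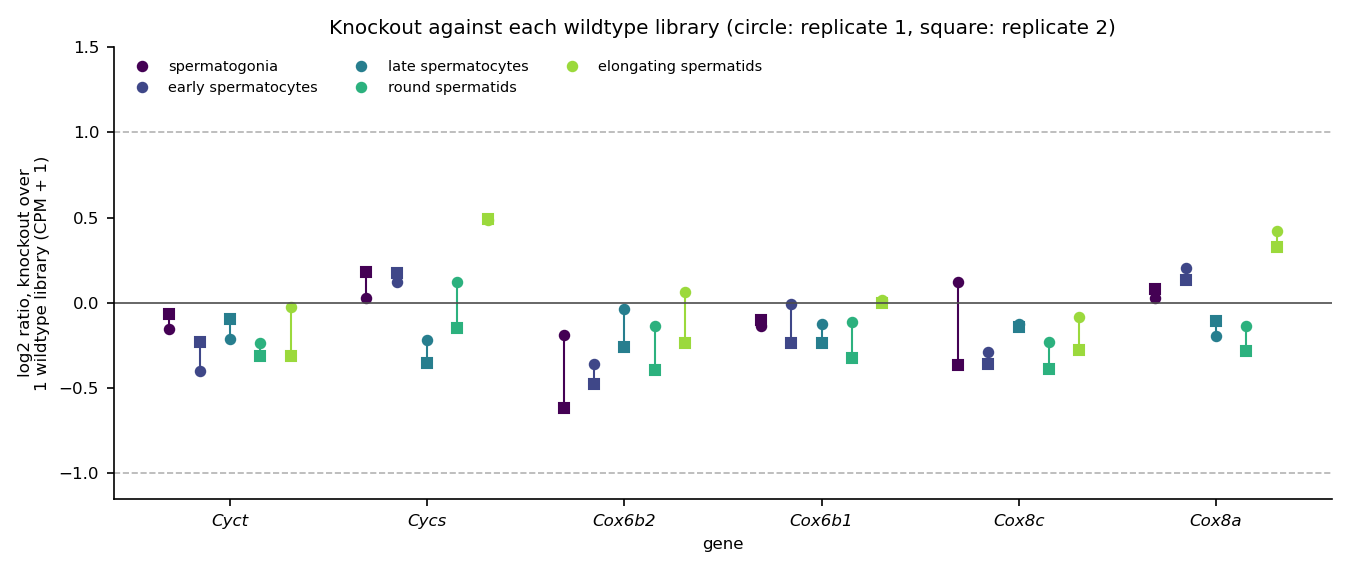
Log2 ratio of the knockout library over each wildtype library (y axis; circle, replicate 1; square, replicate 2; the line joins them) for each gene (x axis) and germ class (colour), with 1 CPM added and dashed lines at 2-fold. All ratios lie within 2-fold, Cyct lies below 0 against both libraries in all 5 classes, and Cycs and Cox8a lie highest in elongating spermatids.

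In early spermatocytes the knockout share of Cyct was 66.2% (exact 95% binomial interval 64.5% to 67.9%) against a wildtype mean of 73.0% ± 1.10 (SD, n = 2). That of Cox6b2 was 80.6% (79.3% to 81.8%) against 83.5% ± 0.783, and that of Cox8c 92.4% (91.7% to 93.0%) against 94.5% ± 0.0108. The 2 wildtype shares of Cox8c lay closer together than their own intervals, 93.8% to 95.1% in each. Their SD is therefore no measure of the spread between mice. In late spermatocytes the 3 shares differed by at most 0.189 percentage points, and in round spermatids by -1.59 for Cyct, -0.11 for Cox6b2 and -0.10 for Cox8c. Within the Stra8-high cluster 17 the knockout shares lay within 3.43 percentage points of the wildtype means, and in cluster 21 that of Cyct was 81.5% against 88.1% ± 0.787. The knockout library had the greater depth per cell in early spermatocytes, with a median of 9086 UMIs against 6629 and 5720, and the part of depth or of cell makeup in these differences was not tested.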

How the data were processed

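Single cells of whole testis were measured in 2 wildtype libraries and 1 knockout library. The authors' deposited files hold raw UMI counts per gene and barcode, made with Cell Ranger 4.0.0, per the file headers. The submitters' processing notes name the mm10 build and Seurat 4.0.5. No normalization had been applied to the deposited counts.

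Barcodes with at least 1000 UMIs, 500 genes and at most 10% mitochondrial UMIs were kept (scanpy 1.11.5). The automatic threshold of Scrublet marked 0, 1 and 0 barcodes, so the top 8% of doublet scores in each library were left out. Cells were clustered on 2000 variable genes, 30 principal components and 15 neighbours (Leiden at resolution 1, with resolution 2 for the finer clusters), leaving out the 6 genes and all other listed genes. Clusters were named from marker lists. Clusters of low UMI count, under a 3-fold limit chosen after the cluster tables were seen, were left out of the classes. Exempt were clusters with at least 3 markers of their type among their 10 leading genes. Cluster 5 of the coarser clustering, elongating spermatids, and the macrophage cluster were under the limit and kept in this way. An ordering of cells by pseudotime was tried and not used, because it did not recover the stage order.

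UMIs were summed per class and library and divided by the class total (CPM). Log2 ratios had 1 CPM added. SDs are over the 2 wildtype libraries, which are 1 mouse each. With 1 knockout library no test between genotypes is possible, and cells were not used as replicates. On simulated counts with 200 changed genes, the size rule recovered 99% in early spermatocytes and 100% in the other 4 germ classes, with 0 false calls. These figures are not split by size of change. All planted changes were beyond the rule's 2-fold limit, and the simulated libraries differed otherwise by counting error only. High recovery was thus built in, and it says nothing of the smaller differences of the members. How the rule fares near its 2-fold limit or with spread between mice was not tested. Genes named beside the members were, per list, those with the largest rises and falls past the rule from spermatogonia to round spermatids, and the 3 most similar genes per member. Cox5a was added after its values were seen. Alternatives covered the cell filter, doublets, clustering, weights, thinning, TMM scaling (edgeR 4.0.16), the CPM added, the low-value filter, the threshold and each wildtype library. The members and lists were chosen with earlier results of these data known.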

Additional observations from a re-analysis of the deposited data

Results flagged for a closer look

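Cycs and Cox8a differed between stages in the direction of knockout against wildtype. Cycs was above both wildtype libraries in elongating spermatids (log2 ratio 0.49) and below both in late spermatocytes (-0.29). Cox8a was above both in elongating spermatids (0.37) and below both in round spermatids (-0.21). These differences between stages were not tested, since there was 1 knockout library. With clusters given equal weight, Cycs in late spermatocytes was at -0.05 and Cox8a in round spermatids at 0.10, and with low-UMI clusters named Cycs in late spermatocytes was at 0.20.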

How the results depend on the processing

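In the wildtype mean, early spermatocytes were the first class over 50% for each pair under every alternative run; in the knockout library with thinned cells Cyct was below 50% there. Of 15 pair and class combinations, 12 were over 50% in all libraries, and 11 with cells thinned to 2000 UMIs, where the Cyct share of early spermatocytes was 56.5% in wildtype and 48.4% in knockout. The knockout library was below both wildtype libraries in 20 of 30 member and class combinations, with 16 when low-UMI clusters were named and 24 without wildtype replicate 1 as the lowest and highest. No member passed the size rule under any alternative. Over all genes the rule called 25, 17, 53, 65 and 43 from spermatogonia to elongating spermatids. With no filter on low values it called 234, 103, 146, 176 and 135, and with a 1.5-fold threshold 85, 50, 137, 150 and 106. With the stricter cell filter it called 42 in early spermatocytes. Leaving out 1 wildtype library gave 43 to 53, 21 to 29, 51 to 77, 69 to 94 and 45 to 51. The cause of these differences was not tested. Of 360 log2 ratios of members under alternatives 20 changed sign, of which 1 under TMM scaling (Cox6b1 in elongating spermatids, 0.01 to -0.07), and the largest move was 0.55. Of 216 shares, 87 moved by at least the SD of the wildtype libraries. The largest move was 20.4 percentage points, at Leiden resolution 2, and the largest with thinned cells was 17.8. At resolution 2, cluster 24, with a wildtype Cyct share of 97.7%, counts among the early spermatocytes. The shares of a class thus depend on these settings by more than their binomial intervals. No paired analysis was possible because the knockout has 1 library. Depth limits the shares most in macrophages and interstitial mesenchymal cells, where intervals reach ±40.0 percentage points.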

Other observations

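Barcodes outside the named classes also held the isoforms. In low-UMI clusters the testis share was 65.3%, 72.3% and 69.9% for Cyct, 91.1%, 92.3% and 92.2% for Cox6b2, and 95.3%, 95.9% and 96.2% for Cox8c (wildtype replicate 1, wildtype replicate 2, knockout). In barcodes over 10% mitochondrial UMIs it was 19.1%, 16.8% and 19.1% for Cyct, 60.2%, 58.7% and 67.2% for Cox6b2, and 77.1%, 76.6% and 79.8% for Cox8c.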
